A study of Mus musculus with 6 samples.

Results

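The transcripts described are those of 39 genes that act in the G2 and M phases of the cell cycle, chosen by gene symbol from a list of mitotic cyclins, kinases, checkpoint, spindle and cytokinesis genes. All 39 have a row among the 19179 genes listed for each library, and all 39 passed the filter on low values (RPKM of at least 1 in at least 3 libraries), beside 10097 genes in all. The cells are 4T1, a mammary carcinoma line of the BALB/C mouse strain, seeded singly in 96-well plates and grown for 14 days without any treatment that the labels name. RNA from 3 libraries of clones labelled breast cancer stem cell (SC in the protocol, here stem-labelled) was compared with 3 of clones labelled breast cancer cell (NSC, here other), and no further allele or agent is given for either group. Per the labels, 10 clones of each kind were taken at random and batches came from 3 independent experiments, but the basis for calling a clone SC or NSC, and whether a library pools 10 clones, is not given in the sources used here. The p-values therefore measure the spread between these 6 libraries, which may be partly technical.

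Entry into mitosis is driven by the kinase CDK1 bound to A- and B-type cyclins, which the CDC25 phosphatases switch on. Polo-like and Aurora kinases then build the spindle, and the spindle checkpoint holds back the anaphase-promoting complex until every chromosome is attached, after which securin and the cyclins are degraded and the cell divides. Most of these genes are transcribed in a late wave of the cycle under B-MYB, FOXM1 and the MuvB complex, and they are widely used as markers of proliferating tumour cells. In RNA from whole clones, a smaller share of cells in G2 or M and less transcript per cell cannot be told apart.

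The late wave is known to be read from promoters that hold a CHR element (core TTTGAA) and CCAAT boxes, bound by MuvB complexes and by NF-Y. RefSeq start sites on GRCm38.p6 were matched by symbol for 31 of the 39 genes, each with a window of 300 bases from 250 before to 50 after the start. The CHR core on either strand (TTTGAA or TTCAAA) occurred in 22 of the 31 genes (71.0%), against 20.2% of 27025 genes with such windows. A CCAAT box (CCAAT or ATTGG) occurred in 25 of the 31 (80.6%), against 41.1%. The CHR core was present in 2 of 3 matched genes called higher below, in 5 of 10 called lower and in 15 of 18 not called, so it was found in all 3 classes. These matches are letters in a window and not measured binding.

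The 100 bases before the RefSeq start are shown, 5′ to 3′ on the strand of the gene, for 3 central genes whose groups overlapped (Cdk1, Cdc20, Ccnb1), 2 that were lower in the stem-labelled clones (Ube2c, Kif20b) and 2 that were higher (Espl1, Nek2). Capitals mark CHR cores and CCAAT boxes.
Cdk1 (chr10:69352913-69353012, minus strand): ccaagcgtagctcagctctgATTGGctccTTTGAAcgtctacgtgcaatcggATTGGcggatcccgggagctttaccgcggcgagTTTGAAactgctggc
Cdc20 (chr4:118437344-118437443, minus strand): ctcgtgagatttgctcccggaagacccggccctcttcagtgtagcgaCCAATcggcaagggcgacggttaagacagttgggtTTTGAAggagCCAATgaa
Ccnb1 (chr13:100786487-100786586, minus strand): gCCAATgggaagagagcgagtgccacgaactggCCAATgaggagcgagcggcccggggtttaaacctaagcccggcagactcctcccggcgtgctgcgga
Ube2c (chr2:164769829-164769928, plus strand): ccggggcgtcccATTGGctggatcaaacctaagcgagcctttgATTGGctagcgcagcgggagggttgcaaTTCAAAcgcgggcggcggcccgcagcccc
Kif20b (chr19:34922258-34922357, plus strand): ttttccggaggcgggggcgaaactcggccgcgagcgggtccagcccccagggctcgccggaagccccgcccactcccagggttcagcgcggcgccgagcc
Espl1 (chr15:102296193-102296292, plus strand): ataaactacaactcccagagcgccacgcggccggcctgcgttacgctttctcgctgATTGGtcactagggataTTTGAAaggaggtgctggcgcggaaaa
Nek2 (chr1:191821373-191821472, plus strand): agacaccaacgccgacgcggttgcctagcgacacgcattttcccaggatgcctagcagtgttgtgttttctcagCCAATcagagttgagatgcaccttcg
Cdk1, Cdc20, Ube2c and Espl1 each hold a CHR core and at least 1 CCAAT box in these stretches. The Ccnb1 and Nek2 stretches each hold at least 1 CCAAT box and no CHR core. The Kif20b stretch holds neither, and its CHR cores begin 8 and 14 bases into the transcribed part.

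**Figure D1:**
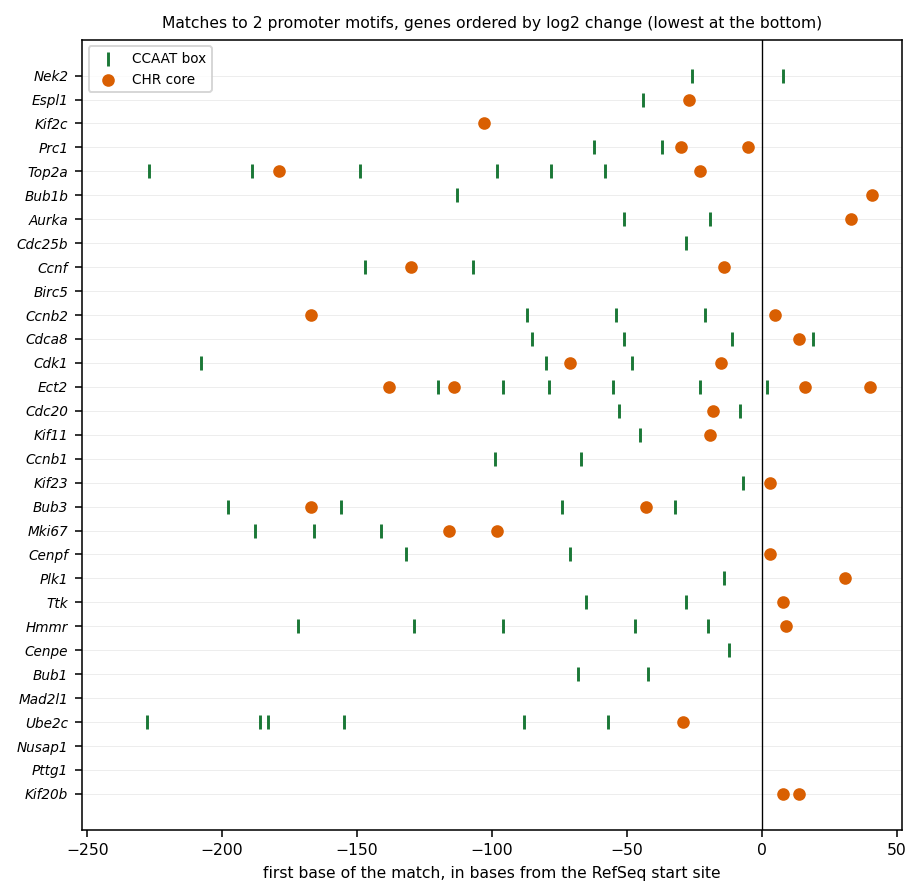
Position of CHR cores (circles) and CCAAT boxes (ticks) in the promoter windows of the 31 genes matched in RefSeq, as the first base of the match in bases from the start site (x axis), with genes ordered by log2 change from the lowest at the bottom (y axis). Bub3, Ect2 and Prc1 have more than 1 start site and their matches are drawn from each. CHR cores occur among genes at both ends of the order and in 22 of 31 genes in all.

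The G2 and M phase genes did not move as a block. On the deposited scale 5 of the 39 were higher in the stem-labelled clones (Nek2, Foxm1, Espl1, Kif2c and Dlgap5), 10 were lower (Kif20b, Pttg1, Nusap1, Ube2c, Mad2l1, Bub1, Cenpe, Hmmr, Ttk and Cenpf) and 24 did not pass. Changes are log2 differences of RPKM + 1, stem-labelled minus other, and called means an adjusted p under 0.05 (limma with Benjamini-Hochberg adjustment over all genes tested). Of all genes tested, 29.9% were called higher and 25.4% lower, so 10 of 39 called lower was near the background share and 5 of 39 called higher was below it. Their median change was -0.07, beside 0.11 for all genes tested, with a range from -2.16 to 1.03. In 6 members all 3 stem-labelled libraries lay above all 3 others, in 9 they lay below, and in 24 the groups overlapped, where 35.7% and 27.8% of all genes tested lay wholly above and below.

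The direction of the list depended on the library total used. Reads in genes numbered 15357608 to 22838870 per library, and were 0.658 to 0.757 of the total implied by the deposited RPKM in the stem-labelled libraries but 1.23 to 1.53 of it in the others. With the same reads rescaled to their sum over genes, 21 members were called higher and 1, Kif20b, lower, beside 58.7% and 12.3% of all genes. The median over members was then 0.82 and that over all genes 0.86, and under both scalings the members' median lay slightly below that of all genes. With length and GC content of the genes corrected for, the fit gave 3 members higher and 12 lower, beside 25.9% and 22.0% of all genes. Levels below are RPKM on the deposited scale, replicates 1, 2 and 3 in that order. Adding 1 before the logarithm understates the change of low genes.

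Leaving out single libraries also moved the counts of members. The 5 called higher became 2 without replicate 1, 2 or 3 of the stem-labelled clones or replicate 1 of the others, 3 without replicate 3 of the others, and 12 without replicate 2 of the others. The 10 called lower became 4 without replicate 1 or 2 of the stem-labelled clones and 6 without replicate 2 or 3 of the others. Over all genes tested, the fits with a library left out called 2539 to 3027 higher, beside 3014 with all libraries. They called 2184 to 2528 lower, beside 2563. Replicate 2 of the other clones was the highest of its group for 28 of the 39 genes and replicate 1 the lowest for 22. The matching shares over all genes tested were not computed, so whether this order was particular to the members was not tested.

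**Figure D2:**
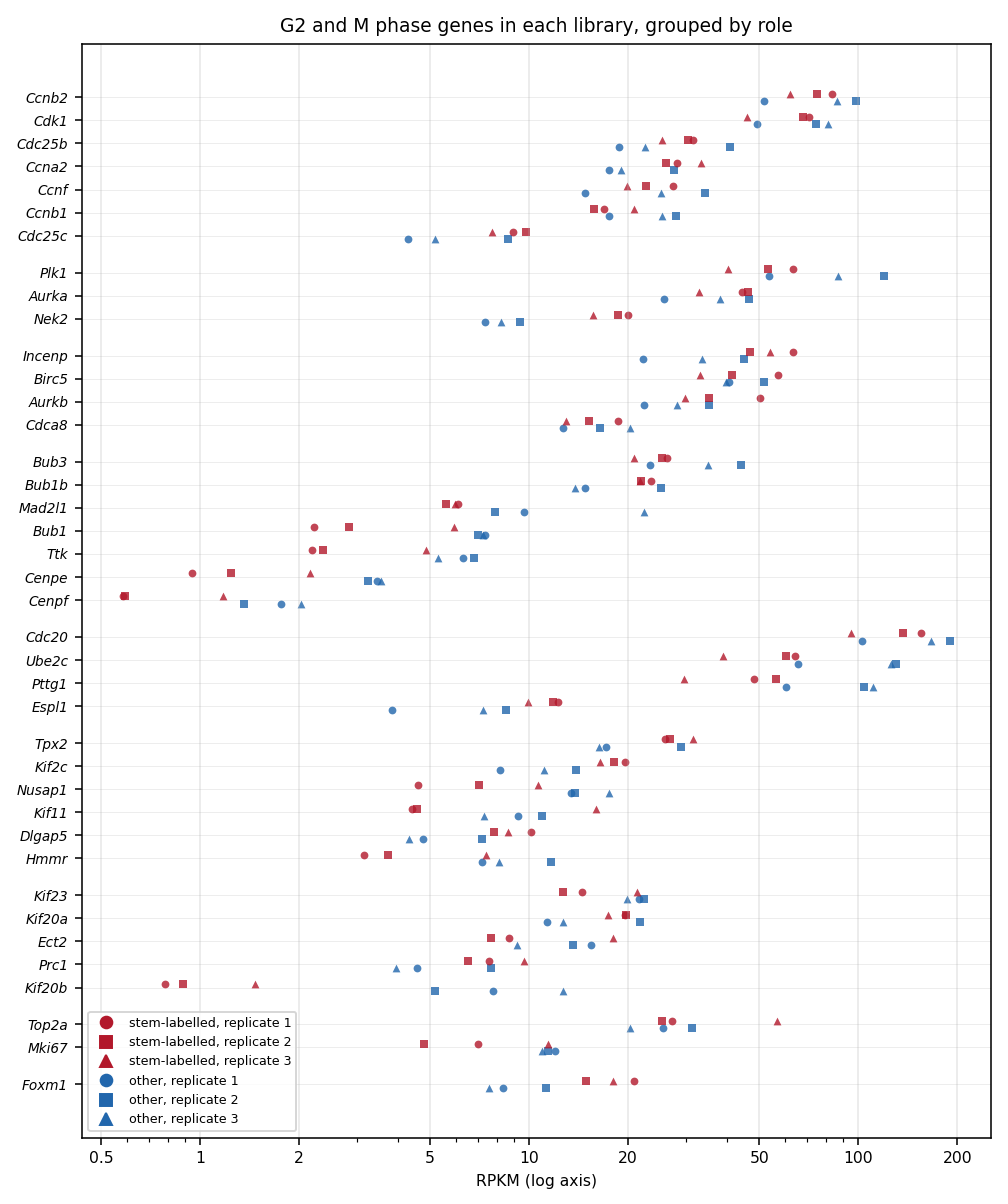
RPKM (log axis) of each of the 39 genes in each library, grouped by role and ordered within a role by mean level, with red symbols for the stem-labelled and blue for the other clones and a symbol shape per replicate. Kif20b, Nek2 and Foxm1 show a gap between the colours, while the cyclins and Cdk1 are mixed.

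**Figure D3:**
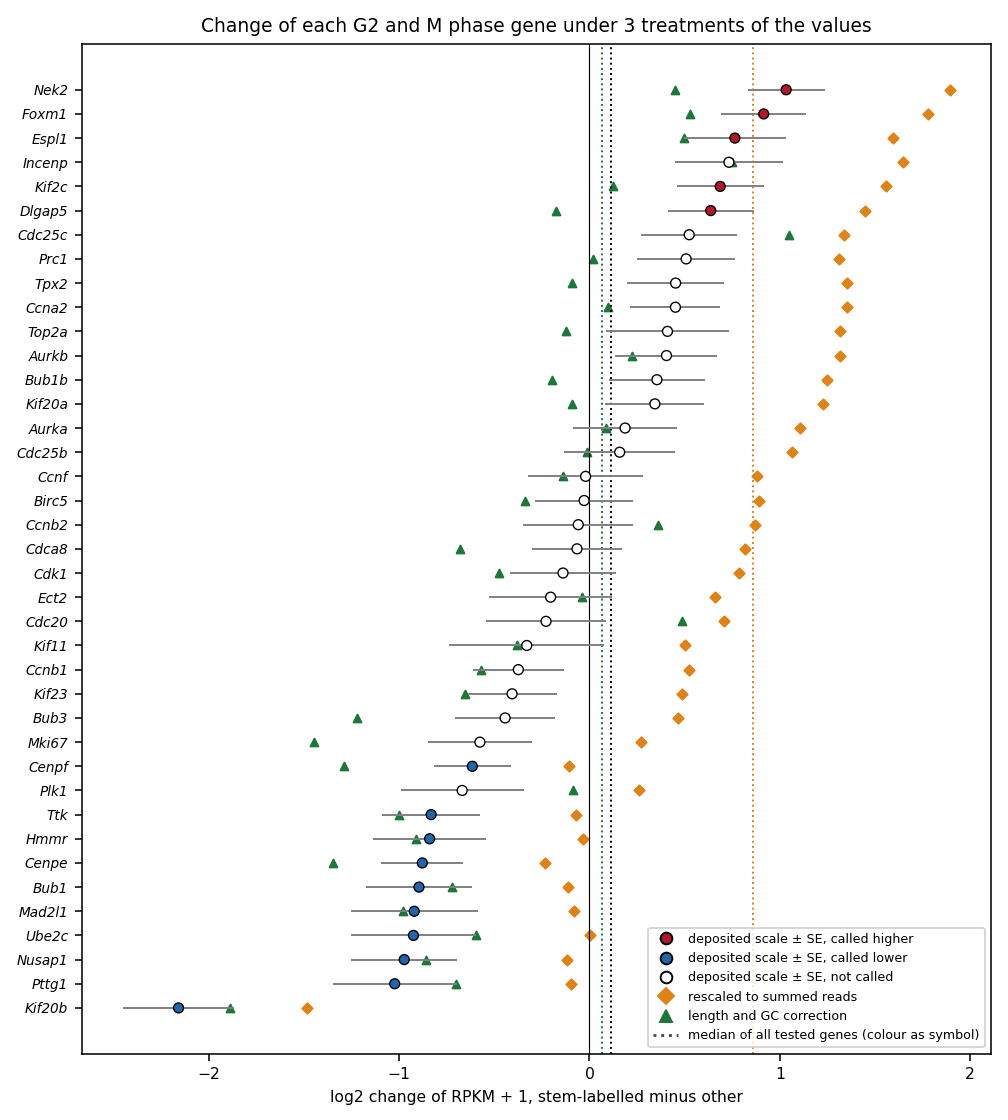
Log2 change of RPKM + 1, stem-labelled minus other (x axis), for each of the 39 genes (y axis): circles with SE bars on the deposited scale (red called higher, blue called lower, white not called), diamonds after rescaling to summed reads, triangles after the length and GC correction, and dotted lines at the matching medians of all tested genes. Kif20b lies lowest under all 3, and rescaling moves the list to the right together with the median of all genes.

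None of the 7 genes of the CDK1 module was called on the deposited scale, where 29.9% of all genes tested were called higher and 25.4% lower. Cdk1, the kinase itself (ENSMUSG00000019942, chromosome 10, 69336635 to 69352938, on GRCm38), had 70.9, 67.8 and 45.95 RPKM in stem-labelled clones against 49.2, 74.5 and 80.8 RPKM in other clones (-0.14 ± 0.28, limma adjusted p = 0.691). Its partner Ccnb1, cyclin B1 (ENSMUSG00000041431, chromosome 13, 100778650 to 100786570), stood at 16.9, 15.7 and 20.8 RPKM against 17.5, 28.01 and 25.4 RPKM (-0.37 ± 0.24, adjusted p = 0.208). The ranges of both overlapped between the kinds of clone. Ccnb1 shares 42.1% of the 50-base stretches of its longest transcript with other annotated genes, chiefly the pseudogene Ccnb1-ps, so its reads may be split.

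Ccnb2, the other mitotic B-type cyclin, was the most abundant of the module with 83.4, 74.97 and 61.9 RPKM against 51.6, 98.6 and 85.97 RPKM (-0.06 ± 0.29, adjusted p = 0.875). Ccna2, cyclin A2, which acts from S phase into early mitosis, stood at 28.1, 26.04 and 33.3 RPKM against 17.4, 27.5 and 19.00 RPKM (0.45 ± 0.24, adjusted p = 0.132). For Ccna2 the stem-labelled libraries lay above replicates 1 and 3 of the others, and replicate 2 of the others lay among them. It was among the members called higher without that library. Ccnf, which encodes an F-box protein that marks targets for degradation in G2, was at 27.3, 22.6 and 19.9 RPKM against 14.8, 34.1 and 25.2 RPKM (-0.02 ± 0.30, adjusted p = 0.958).

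Neither phosphatase gene was called on the deposited scale. Cdc25b, which acts early in G2, was at 31.5, 30.4 and 25.3 RPKM against 18.7, 40.8 and 22.4 RPKM (0.16 ± 0.29, adjusted p = 0.663). Cdc25c, a later activator of CDK1, was at 8.92, 9.799 and 7.73 RPKM against 4.28, 8.65 and 5.17 RPKM (0.52 ± 0.25, adjusted p = 0.104). Replicate 2 of the other clones alone reached into the range of the stem-labelled libraries for Cdc25c, which was called after the length and GC correction (1.05, adjusted p = 0.0149). On rescaling to summed reads 6 of the 7 genes were called higher, where 58.7% of all genes were, and the seventh, Ccnb1, was not.

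Ratios between members within a library do not depend on the library total. Ccna2 stood at 1.60 to 1.67 times the level of Ccnb1 among stem-labelled clones, against 0.749 to 0.998 times among other clones, without overlap. The ratio of Ccnb2 to Ccnb1 overlapped, with 2.98 to 4.95 against 2.95 to 3.52, and so did that of Cdk1 to Ccnb1, with 2.21 to 4.32 against 2.66 to 3.19. These pairs were picked after their values were seen and are given without a test. Exosc9 on the opposite strand overlaps 12.5% of the exon bases of Ccna2, and the strand used in counting is not given. The part of this overlap, and of the sequence that Ccnb1 shares with its pseudogene, in the ratios was not tested.

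Of the mitotic kinase genes, Nek2 was the member with the largest increase. Nek2, a centrosome kinase that splits the spindle poles apart (ENSMUSG00000026622, chromosome 1, 191821444 to 191833050), had 19.9, 18.6 and 15.6 RPKM in stem-labelled clones against 7.32, 9.38 and 8.203 RPKM in other clones. Every stem-labelled library lay above every other one, and the change was 1.03 ± 0.20 (adjusted p = 0.00223). It was called higher in 14 of 16 alternative settings and missed the threshold after the length and GC correction (0.45, adjusted p = 0.0547) and with that correction and the replicate block together. Plk1, the polo-like kinase that runs through all of mitosis, stood at 63.1, 53.2 and 40.1 RPKM against 53.4, 119 and 86.6 RPKM (-0.67 ± 0.32, adjusted p = 0.105). Aurka, the Aurora kinase of the spindle poles, had means of 41.2 ± 7.33 and 36.7 ± 10.5 RPKM (SD, n = 3 each; change 0.19 ± 0.27, adjusted p = 0.577). The groups overlapped for both, and on rescaling Aurka was called higher (1.10) and Plk1 was not called (0.26).

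None of the 4 genes of the chromosomal passenger complex was called on the deposited scale, and all 4 were called higher on rescaling, where 58.7% of all genes were. This complex of the kinase Aurora B with its inner centromere partners corrects faulty attachments. Incenp, its scaffold, was the most abundant of the 4 with 63.1, 46.8 and 54.01 RPKM against 22.2, 45.01 and 33.4 RPKM. All stem-labelled libraries lay above all others, yet the change of 0.73 ± 0.28 missed the threshold (adjusted p = 0.0511) and passed it after the length and GC correction (0.75, adjusted p = 0.0309). Aurkb was at 38.4 ± 10.7 against 28.6 ± 6.38 RPKM, Birc5 (survivin) at 43.8 ± 12.1 against 43.9 ± 6.85 RPKM and Cdca8 (borealin) at 15.6 ± 2.86 against 16.5 ± 3.81 RPKM, each as mean ± SD with n = 3. The log2 differences were 0.40 ± 0.27, -0.03 ± 0.26 and -0.07 ± 0.24, and the groups overlapped for all 3. On rescaling the changes were 1.65 for Incenp, 1.32 for Aurkb, 0.89 for Birc5 and 0.82 for Cdca8, around the 0.86 of the median gene or above it. After the length and GC correction Cdca8 was called lower instead (-0.68).

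Of the 7 checkpoint and kinetochore genes, 5 fell and none rose, where 25.4% of all genes tested were called lower and 29.9% higher. These genes sense unattached kinetochores and link them to microtubules. Bub1, a checkpoint kinase, stood at 2.22, 2.83 and 5.91 RPKM against 7.32, 7.01 and 7.23 RPKM and fell by 0.90 ± 0.28 (adjusted p = 0.0214). Ttk, the MPS1 kinase that starts the checkpoint signal, stood at 2.19, 2.37 and 4.86 RPKM against 6.28, 6.78 and 5.29 RPKM and fell by 0.83 ± 0.26 (adjusted p = 0.0213). For both, the 3 stem-labelled libraries lay below the others, with replicate 3 at 2.34 and 2.13 times the mean of replicates 1 and 2.

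Cenpe, a kinetochore motor, stood at 0.949, 1.24 and 2.16 RPKM against 3.45, 3.24 and 3.55 RPKM and fell by 0.88 ± 0.22 (adjusted p = 0.00717). Cenpf, a large kinetochore protein of late G2, stood at 0.585, 0.594 and 1.18 RPKM against 1.77, 1.36 and 2.03 RPKM, the lowest level of the 39 genes, and fell by 0.62 ± 0.20 (adjusted p = 0.0262). Both had no overlap, and the correction for length and GC left them called, with changes of -1.35 and -1.29. Mad2l1, which encodes the MAD2 protein that blocks CDC20, stood at 6.08, 5.59 and 5.96 RPKM against 9.65, 7.85 and 22.4 RPKM and fell by 0.92 ± 0.33 (adjusted p = 0.0398). Its stem-labelled values were tight, and replicate 3 of the others stood well above replicates 1 and 2. The remaining members were not called. Bub3, the most abundant of the 7, was at 26.3, 25.3 and 20.8 RPKM against 23.4, 43.95 and 34.9 RPKM (-0.44 ± 0.26, adjusted p = 0.177). Bub1b, which encodes BUBR1, was at 22.4 ± 0.932 against 17.9 ± 6.27 RPKM (0.35 ± 0.25, adjusted p = 0.257). On rescaling, none of the 5 that fell was called, with changes from -0.23 to -0.07, all below the 0.86 of the median gene, and Bub1b was called higher (1.25), where 12.3% of all genes were called lower and 58.7% higher.

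The genes of anaphase onset went both ways. Cdc20, which activates the anaphase-promoting complex and is the most abundant of the 39, stood at 155, 136 and 95.3 RPKM against 103, 189.7 and 167 RPKM (-0.23 ± 0.31, adjusted p = 0.557), with overlap. Ube2c, the E2 enzyme of that complex, stood at 64.4, 60.5 and 38.9 RPKM against 65.4, 130.0 and 125 RPKM and fell by 0.93 ± 0.33 (adjusted p = 0.0373). The gap between the groups was narrow, and on rescaling the change was 0.00. An annotated gene on the opposite strand, Tnnc2, overlaps 22.8% of the exon bases of Ube2c, and the strand used in counting is not given in the sources used here.

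Pttg1, securin, the inhibitor of separase, stood at 48.3, 56.2 and 29.5 RPKM against 60.4, 104 and 111 RPKM and fell by 1.02 ± 0.33 (adjusted p = 0.0237), without overlap, although on rescaling it was not called (-0.10). Espl1, separase itself, the protease that cuts cohesin (ENSMUSG00000058290, chromosome 15, 102296293 to 102324356), stood at 12.3, 11.8 and 9.93 RPKM against 3.83, 8.496 and 7.26 RPKM and rose by 0.76 ± 0.27 (adjusted p = 0.0358), also without overlap, and missed the threshold after the correction for length and GC (0.50). The ratio of Espl1 to Pttg1 ran from 0.2104 to 0.337 for stem-labelled clones and from 0.0635 to 0.0816 for other clones. This pair too was picked after its values were seen.

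Of the 6 spindle motor and microtubule genes, 2 rose and 2 fell, where 29.9% of all genes tested were called higher and 25.4% lower. Kif2c, a kinesin that takes microtubules apart at centromeres, stood at 19.6, 18.1 and 16.5 RPKM against 8.17, 13.8 and 11.1 RPKM and rose by 0.69 ± 0.23 (adjusted p = 0.0287). Dlgap5, which stabilizes kinetochore fibres, stood at 10.2, 7.82 and 8.61 RPKM against 4.77, 7.202 and 4.32 RPKM and rose by 0.64 ± 0.23 (adjusted p = 0.0369). Neither had overlap, and neither was called after the length and GC correction (0.12 and -0.18).

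Nusap1, which bundles spindle microtubules, stood at 4.58, 7.03 and 10.6 RPKM against 13.4, 13.8 and 17.5 RPKM and fell by 0.97 ± 0.28 (adjusted p = 0.0149). Hmmr, a spindle protein also known as a hyaluronan receptor, stood at 3.14, 3.73 and 7.39 RPKM against 7.17, 11.7 and 8.12 RPKM and fell by 0.84 ± 0.30 (adjusted p = 0.0362). It is the only called member whose groups overlapped, replicate 3 of the stem-labelled clones lying above replicate 1 of the others. On rescaling neither Nusap1 (-0.12) nor Hmmr (-0.03) was called, and Tpx2 was called higher (1.35). Tpx2, which activates Aurora A on the spindle and was the most abundant of the 6, stood at 25.8, 26.7 and 31.5 RPKM against 17.2, 28.9 and 16.3 RPKM (0.45 ± 0.26, adjusted p = 0.159). Kif11, the motor that pushes the poles apart, stood at 4.401, 4.58 and 15.9 RPKM against 9.23, 10.9 and 7.295 RPKM (-0.33 ± 0.41, adjusted p = 0.513). Replicate 3 of the stem-labelled clones held 3.55 times as much Kif11 transcript as the mean of replicates 1 and 2, which lay below every other library.

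In the central spindle and cytokinesis genes, Kif20b fell and the other 4 members were not called on the deposited scale. Kif20b, a kinesin of the midzone and of the final separation of daughter cells (ENSMUSG00000024795, chromosome 19, 34922358 to 34975731), had 0.783, 0.889 and 1.47 RPKM in stem-labelled clones against 7.77, 5.19 and 12.7 RPKM in other clones. The groups lay far apart, and the change of -2.16 ± 0.29 (adjusted p = 0.000377) was the largest of the 39 in either direction. Summed over the 3 libraries of a group, Kif20b was counted with 537 reads for stem-labelled clones against 1584 for other clones. Kif20b was called lower in each of the 15 alternative settings that tested it, including rescaling (-1.48) and the length and GC correction (-1.89), and the filter of mean RPKM at least 5 removed it. Nek2 stood at 10.6 to 25.5 times the level of Kif20b among stem-labelled clones, against 0.647 to 1.81 times among other clones, a contrast of the 2 extreme members given as a description.

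Kif23, a motor of the midzone, was the most abundant of this role with 14.5, 12.7 and 21.3 RPKM against 21.6, 22.4 and 19.8 RPKM (-0.41 ± 0.23, adjusted p = 0.165). Kif20a, a related midzone kinesin, was at 18.9 ± 1.33 against 15.2 ± 5.69 RPKM (0.34 ± 0.26, adjusted p = 0.284), and 29.3% of its exon bases overlap Cdc23 on the opposite strand. Prc1, which bundles midzone microtubules, was at 7.91 ± 1.61 against 5.395 ± 2.003 RPKM (0.51 ± 0.26, adjusted p = 0.1200). Ect2, the exchange factor that sets the cleavage furrow, was at 11.5 ± 5.69 against 12.7 ± 3.22 RPKM (-0.20 ± 0.32, adjusted p = 0.609). For these 4 genes the groups overlapped. On rescaling Kif20a (1.23) and Prc1 (1.31) were called higher, and Kif23 (0.49) and Ect2 (0.66) were not called. After the length and GC correction Kif23 was called lower (-0.65).

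Foxm1, the transcription factor of the late wave (ENSMUSG00000001517, chromosome 6, 128362967 to 128376146), had 20.8, 14.9 and 18.02 RPKM in stem-labelled clones against 8.36, 11.3 and 7.56 RPKM in other clones. All stem-labelled libraries lay above all others, with a change of 0.92 ± 0.22 (adjusted p = 0.00724). It was called higher in 15 of 16 alternative settings, and missed the threshold with the replicate block and the length and GC correction together (0.53, adjusted p = 0.0838). Foxm1 went in the same direction as Nek2, Espl1, Kif2c and Dlgap5. It went opposite to the 10 members that fell, which were grouped by that direction. The chromosome structure genes were not called on the deposited scale, and on rescaling Top2a was called higher (1.32) and Mki67 was not called (0.27). Top2a, the topoisomerase that untangles chromatids, stood at 27.2, 25.3 and 56.8 RPKM against 25.6, 31.3 and 20.2 RPKM (0.41 ± 0.33, adjusted p = 0.307), replicate 3 of the stem-labelled clones lying above all 5 remaining libraries. Mki67, which encodes the proliferation marker Ki-67, was at 7.005, 4.81 and 11.4 RPKM against 11.98, 11.4 and 10.9 RPKM (-0.58 ± 0.28, adjusted p = 0.102), and fell after the length and GC correction (-1.45, adjusted p = 0.0006402).

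Most members that fell had transcripts of low GC content, Pttg1 and Ube2c being the exceptions. The 10 that fell had a median GC content of 42.4% in the longest annotated transcript, the 5 that rose 50.4% and the 24 not called 47.8%. Of the 14 members in the 2 lowest GC deciles of all genes tested (up to 44.5%), 8 fell and 0 rose. Of the 25 above, these 2 fell and 5 rose. Among all genes tested, 24.4% of the 2018 in those deciles were called lower and 15.2% higher, against 25.6% and 33.5% of the 8069 above. Below the members' median GC content of 47.6%, 9 of 19 members fell and 0 rose, and above 1 of 20 fell and 5 rose. Of 34 other G2 and M genes below that cut, 12 fell and 8 rose, with a median change of 0.12. Of 24 above it, 3 fell and 7 rose (median 0.28). Of all genes, 19.3% below the cut were called lower and 25.5% higher, against 28.5% and 32.1% above. Change and GC content had a Spearman rho of 0.52 over the 39 genes, 0.42 over 58 other G2 and M genes and -0.11 over 10087 tested genes, where the median change was low at both ends of the GC scale. For change and gene length rho was -0.03 over the 39 genes and 0.49 over all genes tested. The points share the same 6 libraries, so these values describe them and carry no test. The correction takes length and GC content together, so the part of each alone was not tested. After the correction for length and GC content 8 of the 10 kept their call and Pttg1 and Ube2c did not (-0.70 and -0.60). The correction added calls for Mki67, Bub3, Kif23 and Cdca8 as lower and for Cdc25c and Incenp as higher, and of the 5 that rose Foxm1 alone remained (0.53, adjusted p = 0.0401).

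**Figure D4:**
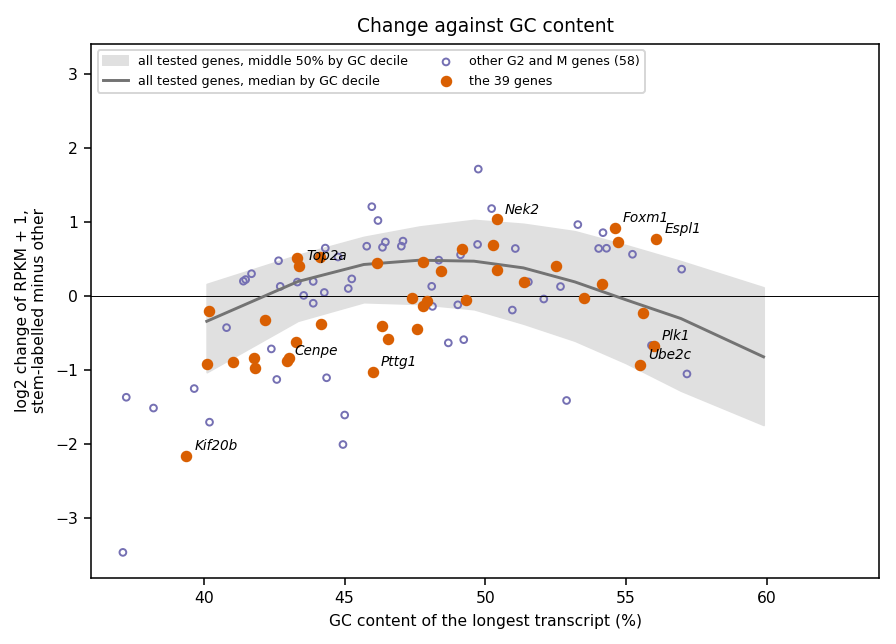
Log2 change of RPKM + 1, stem-labelled minus other (y axis), against the GC content of the longest transcript (x axis, %), for the 39 genes (filled), 58 other G2 and M genes (open circles) and all tested genes by GC decile (line, median; band, middle 50%). The 39 genes of low GC content lie mostly below the line, with Kif20b the lowest.

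Replicate 3 of the stem-labelled clones differed from replicates 1 and 2 in part of the members, both among those called and among those not called. It was the highest stem-labelled library for 7 of the 10 genes that fell, with a median of 1.90 times the mean of replicates 1 and 2. For the 5 genes that rose it was the highest for 0, with a median of 0.874 times. For the 24 not called it was the highest for 9, with a median of 0.854 times. Over all genes tested it was the highest for 32.9%, with a median of 0.931 times. Gene by gene the ratio did not follow the calls. It was 3.55 for Kif11, 2.20 for Ect2 and 2.16 for Top2a, which were not called. Of the genes that fell, Pttg1 had 0.563, Ube2c 0.623 and Mad2l1 1.02. The calls that define these classes used replicate 3 as well. Without that library 10 members were still called lower, 7 of them the same genes, and 2 were called higher. The part of GC content, of gene length and of this library in the calls was not tested beyond these values.

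As a share of all reads in genes, which does not use the implied library total, the 39 genes took 0.498%, 0.4501% and 0.547% in the stem-labelled libraries and 0.211%, 0.373% and 0.258% in the others. The groups did not overlap, with a difference of 0.218 percentage points (exact permutation test, two-sided p = 0.1, the smallest that 3 against 3 allows). Shares of counts such as these move with what else fills a library: the 20 most abundant genes took 8.72% to 11.3% of the reads of stem-labelled clones but 19.4% to 25.6% of those of other clones, and their part in the difference was not tested. A list of 46 DNA replication and S phase genes took 0.688% ± 0.114 against 0.387% ± 0.0957, and 59 other G2 and M genes took 0.451% ± 0.0561 against 0.275% ± 0.0411 (SD, n = 3 each). Neither overlapped either, so the direction was not particular to the 39 genes. Nor was it particular to cell cycle genes: after rescaling to summed reads, 58.7% of all genes tested were called higher. The median change on that scale was 0.86 over all genes and 0.82 over the members. The share of all genes without overlap on that scale was not computed.

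**Figure D5:**
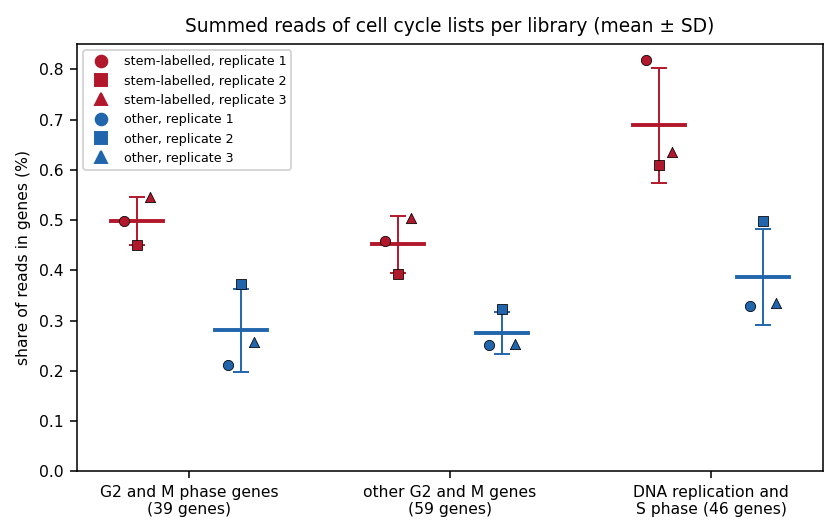
Share of the reads in genes (y axis, %) taken by the 39 genes, 59 other G2 and M genes and 46 DNA replication and S phase genes in each library, red for stem-labelled and blue for other clones, with symbols per replicate and bars for mean ± SD (n = 3). All 3 lists lie higher in the stem-labelled libraries, and 58.7% of all genes tested were called higher after rescaling to summed reads.

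The calls among the other G2 and M genes also depended on the library total. Of 58 tested, 15 rose and 15 fell on the deposited scale, with a median change of 0.16, near the 29.9% and 25.4% of all genes. On rescaling 36 were called higher and 7 lower, with a median of 0.96, beside 58.7% and 12.3% of all genes. After the length and GC correction 10 were called higher and 16 lower, beside 25.9% and 22.0%. Wee1, the kinase that holds CDK1 inactive, stood at 27.5, 22.1 and 22.5 RPKM against 6.48, 8.404 and 5.27 RPKM and rose by 1.71 ± 0.22 (adjusted p = 0.000323). Cenpk, a gene of the inner kinetochore, stood at 1.61, 1.35 and 1.29 RPKM against 33.7, 11.99 and 40.4 RPKM (-3.46 ± 0.38, adjusted p = 0.000174), the largest decrease in that list. Ube2s, which extends the ubiquitin chains of the anaphase-promoting complex, fell by 1.60 ± 0.26 and Depdc1a by 2.34 ± 0.41 (adjusted p = 0.000916 and 0.00129). These 4 genes kept their direction and their calls on rescaling and after the correction.

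Of 14 subunits and partners of the anaphase-promoting complex tested, 3 rose and 4 fell on the deposited scale, with a median of -0.36. On rescaling 5 were called higher and 1 lower and the sign of the median turned, to 0.54, while after the correction 1 was called higher and 7 lower. Anapc10, a substrate-binding subunit, fell by 2.98 ± 0.40, from 38.7 ± 22.6 to 3.44 ± 0.416 RPKM (adjusted p = 0.000378). Fzr1, the activator of the complex at mitotic exit, fell by 1.01 ± 0.22 and Anapc11, its RING subunit, by 1.11 ± 0.27 (adjusted p = 0.00392 and 0.00649), but on rescaling both stood at changes of -0.09 and -0.19 and were not called. Of 11 genes of the MuvB, DREAM and B-MYB group, 3 rose and 2 fell on the deposited scale, with a median of 0.31. On rescaling 8 were called higher and 0 lower, with a median of 1.13, and after the correction 3 and 1. The shares of all genes given for the other G2 and M genes apply to these lists too. Tfdp1, the partner of E2F proteins, rose by 1.31 ± 0.22, and Rbl2, the p130 pocket protein of resting cells, by 1.01 ± 0.19 (adjusted p = 0.00107 and 0.00165). Lin37, a MuvB subunit, fell by 1.17 ± 0.21 (adjusted p = 0.00158). Lin37 was not called on rescaling (-0.30), and neither Lin37 nor Rbl2 was called after the correction (-0.08 and 0.27).

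Of 45 DNA replication and S phase genes tested, 10 rose and 8 fell on the deposited scale, with a median of 0.18, beside 29.9% and 25.4% of all genes. On rescaling 32 were called higher and 1 lower, with a median of 1.02, beside 58.7% and 12.3%. After the correction 4 were called higher and 10 lower, beside 25.9% and 22.0%. Mcm10 rose by 1.29 ± 0.19 and Gins3 by 1.52 ± 0.23, both factors of the replication fork (adjusted p = 0.000613 and 0.000641). Rpa3, the smallest subunit of the single-strand binding protein, fell by 2.92 ± 0.44 and the polymerase subunit gene Pold1 fell by 1.497 ± 0.31 (adjusted p = 0.000621 and 0.00297). Pold1 was not called on rescaling (-0.57), and Mcm10 and Rpa3 were not called after the correction (0.42 and -0.32). The difference between this list and the 39 genes was not tested.

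Of 5 CDK inhibitor genes tested, 2 rose, 2 fell (Cdkn1a and Cdkn3) and 1 did not pass. On rescaling 2 were called higher and 1 lower, Cdkn3 not being called (-0.42), and after the correction the counts were also 2 and 1 (-0.32 for Cdkn3). The shares of all genes given for the DNA replication and S phase list apply here too. Cdkn1a, which encodes p21, fell from 118 ± 14.5 to 15.9 ± 2.16 RPKM (-2.81 ± 0.22, adjusted p = 0.000109). Cdkn1b, which encodes p27, rose from 3.94 ± 0.178 to 16.7 ± 3.37 RPKM and Cdkn2c, which encodes p18, from 16.6 ± 3.099 to 105 ± 19.9 RPKM (1.83 ± 0.21 and 2.59 ± 0.24, adjusted p = 0.000182 and 0.000121). All 3 were called in the same direction on rescaling and after the correction.

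Markers of mammary epithelium, the tissue the line comes from, were present in part and did not move together. As means of stem-labelled and other clones, Krt18 stood at 420.0 and 1480.5 RPKM and Epcam at 55.2 and 56.2 RPKM. Cdh1 went opposite to Krt18, with means of 68.9 and 15.99 RPKM. Cldn7 stood at 0.0180, 0.102 and 0.175 RPKM against 0.560, 0.536 and 29.0 RPKM. Krt19 was at 0.0379 RPKM in replicate 1 of the stem-labelled clones. The 10 epithelial markers summed to 966 to 1506 RPKM for stem-labelled clones against 2173 to 3849.6 RPKM for other clones. Of 9 tested, 2 rose and 5 fell, beside 29.9% and 25.4% of all genes tested. Defining markers of other cell types were at or near 0. Of the fibroblast list 7 of 12 genes matched a row, with sums of 1.70 to 3.42 against 0.598 to 1.03 RPKM, mostly Pdgfra. Of the macrophage list 6 of 14 matched, with sums of 12.6 to 40.2 against 6.26 to 29.7 RPKM, nearly all of it Cd68, while Ptprc reached at most 0.00916 and Csf1r at most 0.0191 RPKM. Of the endothelial list 6 of 8 matched, with sums of 4.599 to 5.299 against 6.80 to 29.0 RPKM, mostly Egfl7 in the others, and Pecam1 reached at most 0.0635 RPKM. Their part in the results on the 39 genes was not tested.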

How the data were processed

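RNA-seq libraries of 6 4T1 cultures (3 per group) were analysed. The deposited values are RPKM per gene, made by the authors, and the submitters' processing notes name Bowtie2 2.0.6, TopHat2 2.0.9 and mm9, whereas 99.4% of the deposited positions lie within 50 kb of the GRCm38 positions in GENCODE M21, so positions are given on GRCm38. Counting, strand and trimming are not given in the sources used here. RPKM times gene length is a whole multiple of 1 read for 100% of values within 0.01 read, which gave the reads per gene, 15357608 to 22838870 per library.

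The 10097 genes that reached 1 RPKM in 3 or more libraries were fitted as log2(RPKM + 1) with limma 3.58.1 (R 4.3.3) with a variance trend, two-sided, adjusted by Benjamini-Hochberg over all of them at 0.05. Summed shares were compared by an exact permutation test. GC content and overlaps come from GENCODE M21, and promoters from RefSeq. The alternatives were other scalings, filters and pseudocounts, limma without the trend, limma-voom on recovered reads, a length and GC correction (splines with 5 df, GC known for 99.9% of genes), a replicate block, and each library left out. The text names with values the CDK1 module, every called member and the most abundant gene of each role, and up to 4 called genes of each other list. The 39 genes and all lists were chosen with earlier results of these data known.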

Additional observations from a re-analysis of the deposited data

How the results depend on the processing

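Direction and calls of the 39 genes rest on the library total and on single libraries. Of 620 gene and setting pairs, 65 changed sign, and some of these also changed side of the threshold. Among the pairs that kept their sign, 416 kept their side of the threshold, 87 lost a call and 52 gained one. Over all genes, 5926 were called higher and 1245 lower on rescaling to summed reads, 5897 and 1231 with limma-voom, and 1405 higher with mean RPKM of at least 5, which tests fewer genes. Members called higher numbered 12 with upper-quartile scaling, 21 on rescaling and with limma-voom, 2 without a filter, 3 with the length and GC correction, 1 with that correction and the block, and 2 to 12 with single libraries left out. Members called lower numbered 3 with upper-quartile scaling, 1 on rescaling and with limma-voom, 2 without a filter, 6 with mean RPKM of at least 5, and 4 to 10 with single libraries left out. The median over members was 0.82 on rescaling and 0.87 with limma-voom, and -0.32 to 0.05 with single libraries left out. Leaving out single libraries gave 2539 to 3027 genes higher, 2184 to 2528 lower and a difference in share of 0.183 to 0.264 percentage points. The cause was not tested.

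Signs changed on rescaling for Ube2c (0.0040), Plk1 (0.26), Mki67 (0.27), Bub3 (0.47), Kif23 (0.49), Ccnb1 (0.52), Kif11 (0.50), Cdc20 (0.71), Ect2 (0.66), Cdk1 (0.79), Cdca8 (0.82), Ccnb2 (0.87), Birc5 (0.89) and Ccnf (0.88). The same genes changed sign with limma-voom, at 0.0033 for Ube2c, 0.26 for Plk1, 0.29 for Mki67, 0.48 for Bub3, 0.51 for Kif23, 0.55 for Ccnb1, 0.54 for Kif11, 0.71 for Cdc20, 0.71 for Ect2, 0.80 for Cdk1, 0.87 for Cdca8, 0.89 for Ccnb2, 0.91 for Birc5 and 0.93 for Ccnf. With upper-quartile scaling 7 did, Cdc20 (0.021), Ect2 (0.028), Cdk1 (0.11), Cdca8 (0.17), Ccnb2 (0.19), Birc5 (0.22) and Ccnf (0.22). The length and GC correction, with or without the block, gave Cdc20 0.48, Ccnb2 0.36, Cdc25b -0.011, Kif20a -0.091, Bub1b -0.20, Top2a -0.13, Tpx2 -0.090 and Dlgap5 -0.18. With single libraries left out the sign also turned for Ect2 (-0.55 to 0.013), Cdk1 (-0.35 to 0.055), Cdca8 (-0.23 to 0.088), Ccnb2 (-0.33 to 0.13), Birc5 (-0.23 to 0.15), Ccnf (-0.33 to 0.24), Cdc25b (-0.063 to 0.48) and Aurka (-0.044 to 0.37).

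The replicate block gave 2735 genes higher and 2477 lower (27.1% and 24.5% of all tested), and 4 and 9 members. Deviations of same-numbered libraries from their group means had correlations of -0.12, 0.03 and -0.08. With 3 libraries per group these values cannot show whether the numbers mark shared experiments. Depth limits Cdc25c most: it had the fewest reads of a member in a library, 99, and 409 over the 3 other libraries.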
